A study of Homo sapiens with 9 samples.

Results

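The nuclear-encoded subunits of the 5 oxidative phosphorylation complexes were examined in MV4;11 cells, in which 1 lysine of the transcription factor MYC, K148, had been replaced. MV4;11 is a human line of acute myeloid leukaemia that carries an MLL fusion and a duplication in FLT3. Rows of the count table were chosen by gene symbol alone, from the naming families NDUF, SDH, UQCR with CYC1, COX4 to COX8, and ATP5, without pseudogene symbols. This gave 87 of 26485 symbols, with 38 assigned to complex I, 4 to complex II, 9 to complex III, 17 to complex IV and 19 to complex V. Bulk RNA sequencing was done on 9 libraries. Of these, 3 came from K148R cells (lysine to arginine), 3 from K148Q cells (lysine to glutamine) and 3 from parental cells. No group was treated and all were cultured in RPMI medium. The labels carry a code for each mutant, Q2 for K148Q and R14 for K148R. How the substitutions were introduced, and whether each mutant line is 1 clone, is not stated in the labels. No label says that replicates are separate cultures, so p-values measure the spread between these libraries, which may be technical. In each comparison the level of every member in the mutant cells was set against that in the others.

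Oxidative phosphorylation takes place on the inner mitochondrial membrane. Complexes I and II pass electrons from NADH and succinate to ubiquinone, complex III hands them to cytochrome c, and complex IV reduces oxygen. Complexes I, III and IV pump protons, and complex V, the ATP synthase, uses the proton gradient to make ATP. Most subunits are encoded in the nucleus and imported, while a few central ones of complexes I, III, IV and V are encoded in mitochondrial DNA, and those were not analysed here. Many acute myeloid leukaemia cells are known to depend on this pathway. MYC binds E-boxes and is known to raise transcription of genes for mitochondrial function, and NRF1 and ETS family proteins such as GABP (whose DNA-binding subunit is GABPA) are known regulators of subunit promoters.

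Promoter sequences are shown because these regulators act there. RefSeq gene starts on GRCh38.p14 were available for 68 of the 87 members, and the 250 bases before each start were searched on both strands. The NRF1 motif CGCATGCG was present in 9 of 68 member promoters (13.2%), against 1.86% of all 27305 promoters searched in the same way. The ETS motif CCGGAAG was present in 16 (23.5%, against 8.82% of all), the E-box CACGTG in 6 (8.82%, against 6.49%) and the YY1 motif AAGATGGC in 1 (1.47%, against 1.37%). The following promoters run 5′ to 3′ on the strand of the gene, with NRF1, ETS and E-box matches in capitals. They are from 6 of the 9 members with an NRF1 match (ATP5C1, ATP5G2, SDHD, NDUFS7, ATP5I and NDUFS6, without COX6A1, ATP5J and NDUFB4), and from NDUFS1, which has an ETS match only. SDHD has both an NRF1 and an ETS match, and NDUFS7 and ATP5I have both an E-box and an NRF1 match, with no overlap between matches.
ATP5C1 (chr10:7787927-7788176, plus strand): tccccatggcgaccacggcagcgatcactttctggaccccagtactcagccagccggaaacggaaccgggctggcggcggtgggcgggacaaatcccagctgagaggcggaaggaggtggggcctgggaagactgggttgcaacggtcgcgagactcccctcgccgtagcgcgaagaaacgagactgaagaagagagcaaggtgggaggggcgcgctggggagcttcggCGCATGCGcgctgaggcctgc
ATP5G2 (chr12:53676084-53676333, minus strand): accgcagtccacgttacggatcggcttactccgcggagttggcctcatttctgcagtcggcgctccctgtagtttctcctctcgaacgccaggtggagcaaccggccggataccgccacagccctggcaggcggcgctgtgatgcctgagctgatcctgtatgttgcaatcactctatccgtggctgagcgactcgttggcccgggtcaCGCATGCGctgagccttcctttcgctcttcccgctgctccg
SDHD (chr11:112086623-112086872, plus strand): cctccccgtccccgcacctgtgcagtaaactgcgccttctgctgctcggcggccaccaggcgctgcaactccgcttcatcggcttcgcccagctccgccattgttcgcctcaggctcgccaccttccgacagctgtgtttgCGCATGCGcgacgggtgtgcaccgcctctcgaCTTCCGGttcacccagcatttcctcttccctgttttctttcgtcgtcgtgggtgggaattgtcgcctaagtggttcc
NDUFS7 (chr19:1383657-1383906, plus strand): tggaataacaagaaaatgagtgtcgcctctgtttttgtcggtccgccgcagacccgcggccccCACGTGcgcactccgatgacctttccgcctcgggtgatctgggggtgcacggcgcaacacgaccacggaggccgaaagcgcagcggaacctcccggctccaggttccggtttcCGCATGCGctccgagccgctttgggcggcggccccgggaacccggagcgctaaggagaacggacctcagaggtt
ATP5I (chr4:674277-674526, minus strand): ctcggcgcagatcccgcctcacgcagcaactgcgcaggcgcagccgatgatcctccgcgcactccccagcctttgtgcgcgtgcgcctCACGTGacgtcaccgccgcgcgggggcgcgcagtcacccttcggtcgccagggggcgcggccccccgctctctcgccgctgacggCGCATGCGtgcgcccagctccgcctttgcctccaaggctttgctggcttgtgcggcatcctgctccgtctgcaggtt
NDUFS6 (chr5:1801157-1801406, plus strand): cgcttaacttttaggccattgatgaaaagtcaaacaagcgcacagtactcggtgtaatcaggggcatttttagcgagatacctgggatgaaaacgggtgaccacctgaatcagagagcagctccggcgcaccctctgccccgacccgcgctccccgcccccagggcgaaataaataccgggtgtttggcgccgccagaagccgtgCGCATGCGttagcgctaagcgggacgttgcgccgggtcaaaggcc
NDUFS1 (chr2:206159445-206159694, minus strand): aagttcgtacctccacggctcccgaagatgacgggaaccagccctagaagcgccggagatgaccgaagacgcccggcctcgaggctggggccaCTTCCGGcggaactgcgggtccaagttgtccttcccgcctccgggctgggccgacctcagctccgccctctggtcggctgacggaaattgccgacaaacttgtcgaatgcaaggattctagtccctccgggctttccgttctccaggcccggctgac
Of the 38 promoters of members that fell in K148R cells against parental cells, 8 held the NRF1 motif (21.1%), 5 the ETS motif (13.2%) and 4 the E-box (10.5%). Of the 22 promoters of members that did not pass in that comparison, 1 held the NRF1 motif (4.55%), 11 the ETS motif and 2 the E-box (9.09%). The promoters of NDUFB6, UQCRC2 and NDUFA12, also described below, held none of these letters in the window. These are counts of letters and say nothing about binding.

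Library totals ran from 13747087 to 18938391 counts. MYC had 382, 379 and 375 CPM (counts scaled to library totals adjusted by TMM) in K148R, 489, 491 and 439 in K148Q and 335, 329 and 336 in parental libraries, which shows its level but does not check the substitution. All 10 markers of myeloid leukaemia reached 1 CPM, and their summed level was 3600 to 3660 CPM in K148R, 2400 to 2450 in K148Q and 1660 to 1680 in parental libraries. LYZ carried most of the K148R difference, with a mean of 1650 CPM in K148R, 491 in K148Q and 161 in parental libraries, followed by CD4. FLT3, MPO and MEIS1 were lower in K148R than in parental libraries, with means of 301, 2.88 and 59.7 CPM in K148R, 676, 3.9 and 52.8 in K148Q and 652, 7.52 and 75.8 in parental libraries. No library exceeded 0.868 CPM over 4 T cell markers or 0.678 over 5 erythroid markers, with CD3E at 0 throughout. B cell markers summed to at most 6.98 CPM with MS4A1 at 0, fibroblast markers to at most 7.99, and epithelial markers to 2.91 at most in the mutants and 26.9 to 28.5 in parental libraries, where KRT8 and KRT18 carried the signal and EPCAM was at 0. Of the endothelial markers only PECAM1, which myeloid cells also express, was above 1 CPM, at 96.3 to 221. In bulk RNA, fewer cells of a type and less RNA per cell cannot be told apart. RN7SK, an RNA without a poly(A) tail, stood at 523, 496 and 435 CPM in K148R libraries, against 7.43, 4.51 and 3.72 in K148Q and 6.45, 16.0 and 4.17 in parental libraries. K148Q replicate 3 stood apart: over 12559 tested genes its deviation from the K148Q mean had a Spearman correlation of -0.729 with GC content, while replicates 1 and 2 had 0.569 and 0.592. The deviations of K148R libraries from their mean had 0.436, 0.034 and -0.416 for replicates 1 to 3, and those of parental libraries -0.038 to 0.063. The part of these differences in the results below was not tested.

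Transcripts of the respiratory chain and ATP synthase were lower on balance in K148R cells than in parental cells, by modest amounts. Of the 87 members, 79 passed the filter on low counts and were tested with edgeR's quasi-likelihood test, in which a Benjamini-Hochberg adjusted p under 0.05 over all 12845 tested genes counts as a change. In K148R against parental cells 43 of 79 members fell and 5 rose, while 37.3% of all tested genes fell and 37.8% rose. The members' share that fell was 54.4% and the share that rose 6.33%. The median log2 fold change was -0.20 over members and -0.00 over all tested genes. Falls of 2-fold or more were called for 2 of 79 members, ATP5C1 and NDUFB6, beside 1896 of all 12845 tested genes. Members thus moved less than tested genes in all, with a median absolute log2 fold change of 0.22 against 0.58. Falls were called for 17 of 38 complex I members, 3 of 4 in complex II, 5 of 9 in complex III, 7 of 11 tested in complex IV and 11 of 17 tested in complex V. Rises were 3 in complex I, 1 in complex IV and 1 in complex V. After correction for GC content and length, 48 members fell and 11 rose, with 35 of the 43 falls kept and 13 members newly called lower, while 39.2% of all tested genes fell and 40.5% rose. Leaving out K148Q replicate 3, which shares the fit, gave 49 falls and 10 rises, with 40.0% and 40.1% of all tested genes.

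In K148Q against parental cells the members moved in both directions. Here 20 of 79 members rose and 18 fell (25.3% and 22.8%), beside 27.0% of all tested genes that rose and 26.3% that fell, and the median log2 fold change was 0.04 over members against -0.01 over all. Complex III had 4 of 9 members higher and 1 lower, while complex V had 2 of 17 higher and 6 lower. Complex I had 10 higher and 6 lower, complex II 1 higher and 2 lower, and complex IV 3 higher and 3 lower. The count of rises depended on the libraries, the scaling and the correction for GC content and length. Without K148Q replicate 3, 34 members rose (43.0%, against 32.4% of all tested genes) and 19 fell (24.1%, against 31.9%). Without K148Q replicate 2, parental replicate 1 or parental replicate 3, 13 rose (16.5%, against 22.6% to 23.3% of all). Upper quartile scaling gave 12 rises (15.2%, against 23.7%) and 21 falls (26.6%, against 29.7%). Library totals only gave 25 rises (31.6%, against 28.5%) and 16 falls (20.3%, against 24.9%). After correction for GC content and length 28 rose (35.4%, against 29.9%) and 19 fell (24.1%, against 30.5%). The members' share of rises thus lay above that of all genes in some settings and below it in others. Upper quartile scaling ended the K148Q rises of COX6B1, NDUFA12, UQCRC1 and UQCRFS1 among the members described below, and RLE scaling, library totals only and DESeq2 ended the K148Q falls of ATP5E and NDUFV1.

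Between the mutants, K148R cells had lower levels of most members than K148Q cells. In this comparison 53 of 79 members were lower and 7 higher in K148R cells (67.1% and 8.86%), while 34.5% of all tested genes were lower and 36.6% higher. The median log2 fold change was -0.23 over members and 0.02 over all tested genes. Complex III had 8 of 9 members lower, complex I 23 lower and 2 higher, complex II 3 lower and 1 higher, complex IV 8 lower and 2 higher, and complex V 11 lower and 2 higher. Without K148Q replicate 3 the counts were 60 lower and 6 higher (75.9% and 7.59%), beside 36.4% and 38.0% of all tested genes. After correction for GC content and length 53 were lower and 11 higher, with 46 of the 53 lower calls kept. In that setting 37.2% of all tested genes were lower and 40.3% higher. The comparisons share libraries, so their results are not independent of each other.

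**Figure D1:**
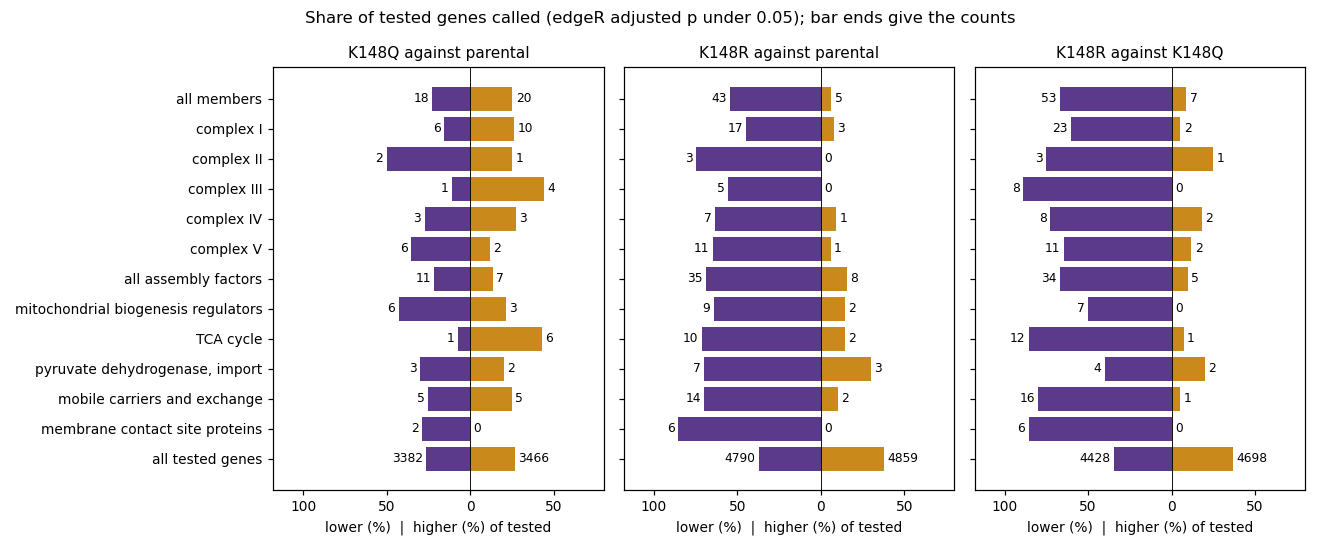
Share of tested genes called lower (left, purple) or higher (right, gold) in each of the 3 comparisons, in percent of the genes tested, for the members, each complex, the other gene lists and all tested genes, with counts at the bar ends. In K148R cells 43 of 79 members fell and 5 rose against parental cells, while among all tested genes the lower and higher shares were 37.3% and 37.8%.

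The summed level of each complex gave the same order of groups for complexes I, II and III, but not in every complex. Complex I members summed to 3525, 3544 and 3321 CPM in K148R libraries, to 4092, 4167 and 3828 in K148Q libraries and to 3879, 3873 and 3853 in parental libraries. Complex II summed to 446, 444 and 447 CPM in K148R, to 546, 544 and 557 in K148Q and to 546, 550.0 and 535 in parental libraries. As a percentage of the parental mean, K148R cells had 89.5% for complex I, 81.9% for II, 82.3% for III, 90.1% for IV and 84.1% for V. K148Q cells had 104%, 101%, 107%, 99.3% and 94.8% in the same order of complexes. The K148R libraries lay below the parental libraries in all 5 complexes, while K148Q libraries overlapped them in complexes I, II and IV, lay above them in complex III and below them in complex V. Over all members the sums were 11540 ± 179 CPM in K148R, 13400 ± 576 in K148Q and 13360 ± 165 in parental libraries (SD, n = 3 each). Each sum is weighted towards its most abundant transcripts.

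**Figure D2:**
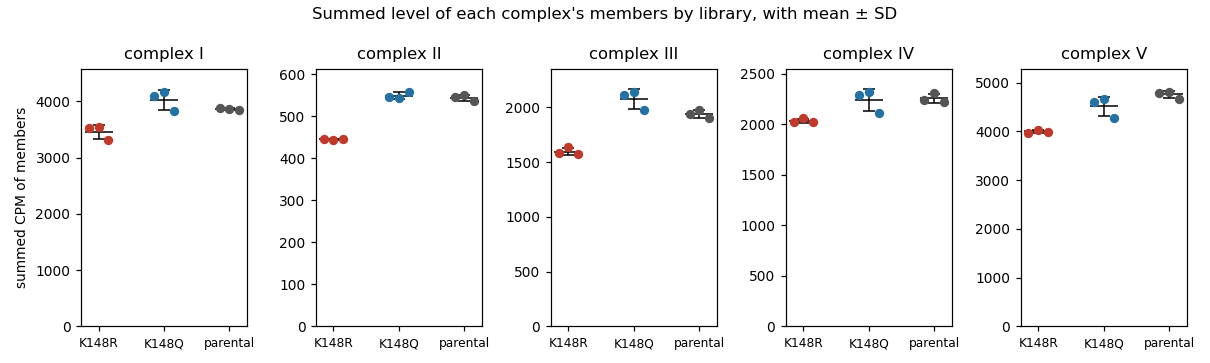
Summed CPM of the members of each complex in every library (points, replicates 1 to 3 from left), with the mean and SD of K148R, K148Q and parental libraries. The K148R points lie below all parental points in each of the 5 panels, while K148Q replicate 3 is the lowest K148Q library in complexes I, III, IV and V.

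Complex I, NADH dehydrogenase, has core subunits that carry electrons and many accessory subunits. The core subunit NDUFS1 (chromosome 2, 206114817 to 206159603 in GENCODE v29 on GRCh38), which holds several of the iron-sulphur clusters of the peripheral arm, had 81.4, 75.4 and 75.8 CPM in K148R, 139.7, 149 and 142 in K148Q and 145, 144 and 144 in parental libraries. K148R libraries were the low ones, and K148Q libraries fell on both sides of the parental ones. The log2 fold change against parental, given here and below ± SE, was -0.90 ± 0.06 (edgeR adjusted p = 1.8e-09) in K148R and -0.01 ± 0.06 (edgeR adjusted p = 0.91) in K148Q. Exons of NDUFS1 overlap EEF1B2 on the opposite strand, and how counting treated strand is unknown. NDUFS8, which carries iron-sulphur clusters near the quinone site, had 55.8, 56.4 and 49.7 CPM in K148R, 83.7, 83.3 and 69.8 in K148Q and 82.4, 80.2 and 79.6 in parental libraries, with a change of -0.58 ± 0.08 (edgeR adjusted p = 9.6e-06) in K148R. NDUFS7, which carries the last cluster before ubiquinone, changed by -0.43 ± 0.08 (edgeR adjusted p = 0.00028) in K148R against parental cells. NDUFV1, which binds NADH and the flavin, changed by -0.41 ± 0.08 (edgeR adjusted p = 0.0004) in K148R and by -0.21 ± 0.08 (edgeR adjusted p = 0.045) in K148Q, the second call being lost without any parental library, K148Q replicate 1 or 3, or K148R replicate 2, with -0.12 without K148Q replicate 3. The core subunits NDUFS3 and NDUFV2 did not pass against parental cells in either mutant, with 0.12 ± 0.06 and -0.10 ± 0.06 in K148R. Both passed in K148R without K148Q replicate 3 (0.12 and -0.11).

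Among accessory subunits of complex I, NDUFB6 of the membrane arm fell most in K148R cells. NDUFB6 (chromosome 9, 32552999 to 32573184) had 23.5, 22.1 and 23.2 CPM in K148R, 35.5, 34.8 and 40.7 in K148Q and 52.4, 46.2 and 48.7 in parental libraries, so that the 3 groups did not overlap. Its log2 fold change was -1.10 ± 0.08 (edgeR adjusted p = 1.9e-08) in K148R and -0.41 ± 0.08 (edgeR adjusted p = 0.00078) in K148Q, and after correction for GC content and length -0.67 and -0.30. Its exons overlap SMIM27 on the opposite strand. NDUFA9, which lies where the peripheral and membrane arms meet, had 50.1, 47.5 and 49.4 CPM in K148R, 87.3, 84.2 and 77.4 in K148Q and 78.3, 81.7 and 78.5 in parental libraries. It fell in K148R cells (-0.70 ± 0.07 (edgeR adjusted p = 1.7e-07)), and its K148Q libraries lay on both sides of the parental ones. NDUFA7 and NDUFS4, accessory subunits of the peripheral arm, changed by -0.73 ± 0.08 (edgeR adjusted p = 6.3e-07) and -0.60 ± 0.07 (edgeR adjusted p = 3.5e-06) in K148R cells. NDUFAB1, the mitochondrial acyl carrier protein, changed by -0.54 ± 0.06 (edgeR adjusted p = 2.7e-06), NDUFB3 of the membrane arm by -0.52 ± 0.06 (edgeR adjusted p = 4e-06) and NDUFS5, an intermembrane-space subunit, by -0.44 ± 0.06 (edgeR adjusted p = 1.8e-05). NDUFA5, another peripheral subunit, had 33.3, 36.5 and 35.3 CPM in K148R, 44.6, 44.5 and 79.7 in K148Q and 60.3, 59.9 and 64.7 in parental libraries. K148Q replicate 3 was the high one there, the SE was correspondingly large (-0.82 ± 0.20 (edgeR adjusted p = 0.0032) in K148R), and 12 named pseudogenes of NDUFA5 make its assignment uncertain. The fall of NDUFA3 was lost without K148R replicate 3. That of NDUFB4 was lost without any parental library or K148R replicate 1 or 3, and with RLE scaling, DESeq2, the filter of 1 CPM in every library or the GC and length correction.

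A few complex I transcripts were higher in a mutant. NDUFA12, an accessory subunit of the peripheral arm (chromosome 12, 94897055 to 95003770), had 107, 119 and 115 CPM in K148R, 76.2, 78.3 and 81.2 in K148Q and 71.9, 67.1 and 66.4 in parental libraries. The 3 groups did not overlap, and K148R libraries were the highest. The log2 fold changes against parental were 0.73 ± 0.06 (edgeR adjusted p = 7e-08) in K148R and 0.20 ± 0.06 (edgeR adjusted p = 0.018) in K148Q, the second call being lost without parental replicate 2 or 3. NDUFV3, a small flavoprotein subunit, changed by 0.21 ± 0.07 (edgeR adjusted p = 0.011) in K148R and 0.48 ± 0.07 (edgeR adjusted p = 2.5e-05) in K148Q. Its call in K148R was lost without parental replicate 3 and under the GC and length correction. NDUFB11, a membrane-arm subunit, changed by 0.25 ± 0.09 (edgeR adjusted p = 0.017) in K148R, a call lost without parental replicate 1 or K148R replicate 1 or 2. NDUFS6, a zinc-binding subunit, had 73.7, 74.8 and 69.4 CPM in K148R, 102, 106 and 93.2 in K148Q and 66.7, 69.4 and 67.7 in parental libraries. It was high in K148Q cells (0.56 ± 0.06 (edgeR adjusted p = 5.5e-06)), while the K148R value was 0.10 ± 0.07 and did not pass. NDUFB9, a membrane-arm subunit, rose in K148Q cells by 0.43 ± 0.06 (edgeR adjusted p = 7.2e-05), and NDUFA6, a peripheral subunit, by 0.30 ± 0.06 (edgeR adjusted p = 0.00097). NDUFA4, first assigned to complex I and now regarded as a subunit of complex IV, passed in neither mutant against parental cells and was lower in K148R than in K148Q cells (-0.19 ± 0.05 (edgeR adjusted p = 0.0069)). After the GC and length correction the NDUFA4 value between the mutants was 0.10 and did not pass. NDUFC2, a membrane-arm subunit, had 50.1, 52.5 and 52.9 CPM in K148R, 22.03, 24.4 and 43.5 in K148Q and 46.2, 46.3 and 47.01 in parental libraries. The K148Q libraries were low and widely spread, with replicate 3 close to the parental level. Its log2 fold change in K148Q was -0.63 ± 0.20 (edgeR adjusted p = 0.024), and -0.99 without K148Q replicate 3. That call was lost without K148Q replicate 1 or 2 and under the GC and length correction. It was also lost with no filter on low counts and with only the 2 groups compared. NDUFC2 shares exons with the read-through gene NDUFC2-KCTD14.

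**Figure D3:**
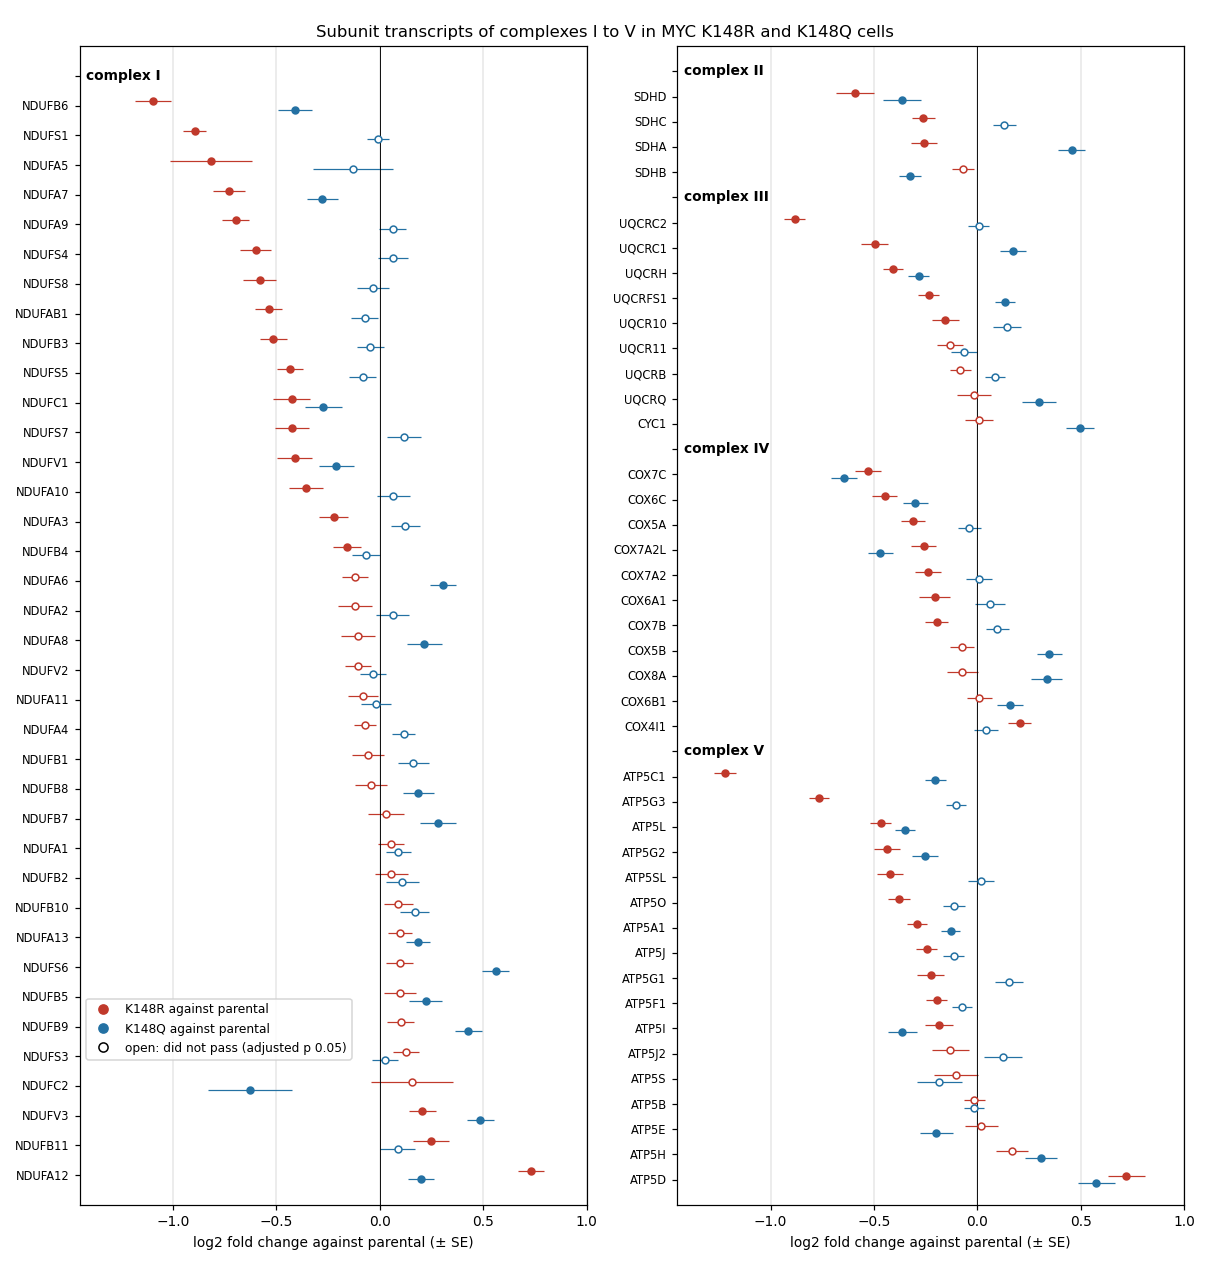
Log2 fold change (± SE) against parental cells of the tested members reported here, in K148R (red) and K148Q (blue) cells, by complex and ordered by the K148R value, with filled points for an edgeR adjusted p under 0.05. Most red points lie left of 0, from -1.22 for ATP5C1 to 0.73 for NDUFA12, while blue points lie on both sides.

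Complex II, succinate dehydrogenase, links the TCA cycle to the respiratory chain, and its 4 genes did not move together. SDHA, the flavoprotein that oxidises succinate, had 141, 132 and 119 CPM in K148R, 221, 221 and 202 in K148Q and 155, 158 and 157 in parental libraries. K148Q libraries were the high ones and K148R libraries the low ones, with no overlap. The log2 fold changes were -0.26 ± 0.07 (edgeR adjusted p = 0.0023) in K148R and 0.46 ± 0.06 (edgeR adjusted p = 3.8e-05) in K148Q against parental, and -0.71 ± 0.06 (edgeR adjusted p = 1.4e-07) in K148R against K148Q. SDHB, the iron-sulphur subunit, had 128, 137 and 139 CPM in K148R, 114, 112 and 112 in K148Q and 144, 141 and 139.6 in parental libraries. K148Q libraries were the low ones. It fell in K148Q cells (-0.33 ± 0.05 (edgeR adjusted p = 0.00015)) and was higher in K148R than in K148Q cells (0.26 ± 0.05 (edgeR adjusted p = 0.00058)), while the K148R value against parental of -0.07 ± 0.05 did not pass. SDHC and SDHD are the membrane anchors that hold the quinone site. SDHC had 80.2, 79.3 and 81.5 CPM in K148R, 106, 105 and 106 in K148Q and 97.8, 98.7 and 92.5 in parental libraries, with a fall of -0.26 ± 0.06 (edgeR adjusted p = 0.00059) in K148R cells. SDHD had 95.7, 94.9 and 107 CPM in K148R, 105, 106 and 138 in K148Q and 149, 152 and 146 in parental libraries, so both mutants lay below parental. Its log2 fold changes against parental were -0.59 ± 0.09 (edgeR adjusted p = 4.1e-05) in K148R and -0.36 ± 0.09 (edgeR adjusted p = 0.0043) in K148Q, and -0.14 and -0.24 after the GC and length correction. Between the mutants it was -0.23 ± 0.09 (edgeR adjusted p = 0.04), which was -0.10 without K148Q replicate 3 and 0.10 after that correction. SDHD shares exons with TIMM8B on the opposite strand.

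Complex III, cytochrome bc1, was led by its core protein UQCRC2. UQCRC2 (chromosome 16, 21952660 to 21983660) had 137, 145 and 149.8 CPM in K148R, 265, 273 and 261 in K148Q and 268, 268 and 259 in parental libraries. K148R libraries lay far below the others, and K148Q and parental libraries overlapped. The log2 fold changes against parental were -0.88 ± 0.05 (edgeR adjusted p = 8.2e-10) in K148R and 0.01 ± 0.05 (edgeR adjusted p = 0.92) in K148Q. UQCRC1, the other core protein, had 185, 190.4 and 181 CPM in K148R, 313, 309 and 262 in K148Q and 256, 272 and 257 in parental libraries, with -0.50 ± 0.07 (edgeR adjusted p = 6.5e-06) in K148R. UQCRFS1, the Rieske iron-sulphur protein, changed by -0.24 ± 0.05 (edgeR adjusted p = 0.00065) in K148R, and UQCRH, the hinge protein that contacts cytochrome c1, by -0.41 ± 0.05 (edgeR adjusted p = 3.5e-06) in K148R and -0.28 ± 0.05 (edgeR adjusted p = 0.00029) in K148Q. CYC1, cytochrome c1, had 214, 215 and 202 CPM in K148R, 306, 319 and 260.1 in K148Q and 208, 211 and 208 in parental libraries. It rose in K148Q cells (0.50 ± 0.07 (edgeR adjusted p = 2.6e-05)), with K148Q replicate 3 the lowest of that group, and its K148R value of 0.01 ± 0.07 did not pass. UQCRQ, a small membrane subunit, also rose in K148Q cells (0.30 ± 0.08 (edgeR adjusted p = 0.008)). UQCRB and UQCR11 did not pass against parental cells in either mutant, with -0.08 ± 0.05 and -0.13 ± 0.06 in K148R. Both passed there without K148Q replicate 3 (-0.09 and -0.14), and UQCR11 also after the GC and length correction (-0.30). The rises of UQCRC1 and UQCRFS1 in K148Q cells were lost without parental replicate 1 or 3, K148Q replicate 1 or 2, or K148R replicate 2, and that of UQCRFS1 also without parental replicate 2. The fall of UQCR10 in K148R cells was lost without parental replicate 1 or 2 or any K148R library, under the same 4 other settings as that of NDUFB4, and with limma-voom.

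Complex IV, cytochrome c oxidase, has tissue-specific isoforms, and the isoforms known from muscle, testis or lung had few or no counts here. Over all 9 libraries COX6A2, COX7A1 and COX7B2 had 0 counts, COX4I2 had 1, COX8C 2 and COX6B2 16. With 0 counts in a library, levels of up to 0.163 to 0.217 CPM are allowed by 3 counts, for counting error only. The ubiquitous isoform COX4I1, the largest nuclear-encoded subunit, had 422, 458 and 421 CPM in K148R, 396, 405 and 360.5 in K148Q and 379, 387 and 362 in parental libraries. It rose in K148R cells (0.20 ± 0.06 (edgeR adjusted p = 0.0043)), where the other ubiquitous forms COX6A1 (-0.21 ± 0.07 (edgeR adjusted p = 0.021)) and COX7A2 (-0.24 ± 0.06 (edgeR adjusted p = 0.0033)) fell. After the GC and length correction the COX4I1 change was 0.07, that of COX6A1 was -0.43 and COX7A2 lost its call. COX6A1 lost its call without K148R replicate 3 or parental replicate 2. COX7C, a small membrane subunit, had 139, 132 and 156 CPM in K148R, 129, 135 and 130.4 in K148Q and 206, 203 and 208 in parental libraries. Both mutants lay below all parental libraries, by -0.53 ± 0.06 (edgeR adjusted p = 1.9e-06) in K148R and -0.64 ± 0.06 (edgeR adjusted p = 8.7e-07) in K148Q, and by -0.21 and -0.48 after the correction. COX6C, a membrane subunit with 17 named pseudogenes, had 186, 185 and 206 CPM in K148R, 205, 206 and 229 in K148Q and 254, 265 and 268 in parental libraries. Its K148R fall (-0.45 ± 0.06 (edgeR adjusted p = 9.5e-06)) was 0.01 after the GC and length correction, and the falls of COX7B (-0.20 ± 0.06) and COX7A2L (-0.26 ± 0.06) turned to 0.15 and 0.12. COX7A2L is a factor of respiratory supercomplexes and not a subunit of the isolated enzyme. COX5A, which binds on the matrix side, fell in K148R cells by -0.31 ± 0.06 (edgeR adjusted p = 0.00017). COX5B, its matrix-side neighbour, and COX8A, a small membrane subunit, rose in K148Q cells by 0.35 ± 0.06 (edgeR adjusted p = 0.00022) and 0.34 ± 0.07 (edgeR adjusted p = 0.0016). COX6B1, an intermembrane-space subunit, rose in K148Q cells by 0.16 ± 0.06 (edgeR adjusted p = 0.043), a call lost without parental replicate 1 or 3, K148Q replicate 1 or 2, or K148R replicate 2.

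Complex V, ATP synthase, held the member that fell most. ATP5C1 (now ATP5F1C, chromosome 10, 7788129 to 7807815), the gamma subunit that forms the rotating central stalk, had 128, 128 and 139 CPM in K148R, 259, 264 and 276 in K148Q and 308, 307 and 304 in parental libraries. The 3 groups did not overlap, and the fold of K148R over parental cells was 0.429. The log2 fold changes were -1.22 ± 0.05 (edgeR adjusted p = 2.4e-11) in K148R and -0.20 ± 0.05 (edgeR adjusted p = 0.0042) in K148Q against parental, and -1.02 ± 0.05 (edgeR adjusted p = 2.3e-10) in K148R against K148Q. After the GC and length correction they were -0.80, -0.09 and -0.71. The catalytic head is built from ATP5A1 (alpha) and ATP5B (beta). ATP5B had 1185, 1224 and 1184 CPM in K148R, 1231, 1247 and 1106 in K148Q and 1221, 1225 and 1181 in parental libraries. Its groups overlapped and no comparison passed, with -0.01 ± 0.05 in K148R and -0.02 ± 0.05 in K148Q against parental. ATP5A1 had 759, 767 and 783 CPM in K148R, 872, 901 and 810.2 in K148Q and 952, 956 and 917 in parental libraries, and fell by -0.29 ± 0.05 (edgeR adjusted p = 5.5e-05) in K148R. ATP5D, the delta subunit of the central stalk, went the other way from ATP5C1, with 143, 129 and 125 CPM in K148R, 126, 132 and 101 in K148Q and 76.6, 83.2 and 81.4 in parental libraries. Both mutants lay above all parental libraries, by 0.72 ± 0.09 (edgeR adjusted p = 3.8e-06) in K148R and 0.57 ± 0.09 (edgeR adjusted p = 9.6e-05) in K148Q. The K148R value was 0.46 after the GC and length correction. ATP5E, the epsilon subunit, passed in K148Q cells (-0.20 ± 0.08 (edgeR adjusted p = 0.048)), a call lost without any library other than parental replicate 1, and the value was -0.0004 after the GC and length correction.

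The c-ring, which turns with proton flow, is made of 1 mature protein encoded by 3 genes, and all 3 fell in K148R cells. ATP5G3 had 170.4, 172 and 174 CPM in K148R, 265, 281 and 271 in K148Q and 298, 296 and 284 in parental libraries. ATP5G2 had 268, 268 and 258 CPM in K148R, 316, 319 and 268 in K148Q and 359, 364 and 352 in parental libraries. K148R libraries were the low ones for ATP5G3, while for ATP5G2 K148Q replicate 3 stood at the level of K148R replicates 1 and 2. K148R libraries lay below all parental libraries for both, with -0.77 ± 0.05 (edgeR adjusted p = 2e-09) for ATP5G3 and -0.44 ± 0.06 (edgeR adjusted p = 1.5e-05) for ATP5G2. ATP5G1, which has 7 named pseudogenes, fell by -0.23 ± 0.07 (edgeR adjusted p = 0.0072), and by -0.43 after the GC and length correction. ATP5G2 also fell in K148Q cells (-0.25 ± 0.06 (edgeR adjusted p = 0.0036), and -0.16 without K148Q replicate 3), while the values of ATP5G3 and ATP5G1 there were -0.10 ± 0.05 and 0.15 ± 0.07 and did not pass. The ATP5G1 value in K148Q passed without K148Q replicate 3 (0.23). Of the peripheral stalk, ATP5O (the oligomycin sensitivity protein), ATP5J (subunit F6) and ATP5F1 (subunit b) changed by -0.38 ± 0.05 (edgeR adjusted p = 1.4e-05), -0.25 ± 0.05 (edgeR adjusted p = 0.00051) and -0.20 ± 0.05 (edgeR adjusted p = 0.0021) in K148R cells, the last 2 calls being lost under the GC and length correction. ATP5H, subunit d of the same stalk, rose in K148Q cells by 0.31 ± 0.08 (edgeR adjusted p = 0.0038). The membrane subunits ATP5L (g) and ATP5I (e), which help dimers to form, fell in both mutants. ATP5L changed by -0.47 ± 0.05 (edgeR adjusted p = 5.6e-07) in K148R and -0.35 ± 0.05 (edgeR adjusted p = 3.3e-05) in K148Q, with -0.11 and -0.25 after that correction. ATP5I changed by -0.18 ± 0.07 (edgeR adjusted p = 0.026) in K148R, a call lost without parental replicate 1 or 2 or K148R replicate 3, and by -0.36 ± 0.07 (edgeR adjusted p = 0.00057) in K148Q, with -0.69 and -0.23 after the correction. ATP5S and ATP5SL match the symbol rule but are not structural subunits. ATP5SL, now DMAC2, a complex I assembly factor, fell in K148R cells by -0.42 ± 0.06 (edgeR adjusted p = 2.8e-05), and ATP5S passed in neither mutant. The read-through symbol ATP5J2-PTCD1 had 0 counts and ATP5L2 had 3, so neither was tested.

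**Figure D4:**
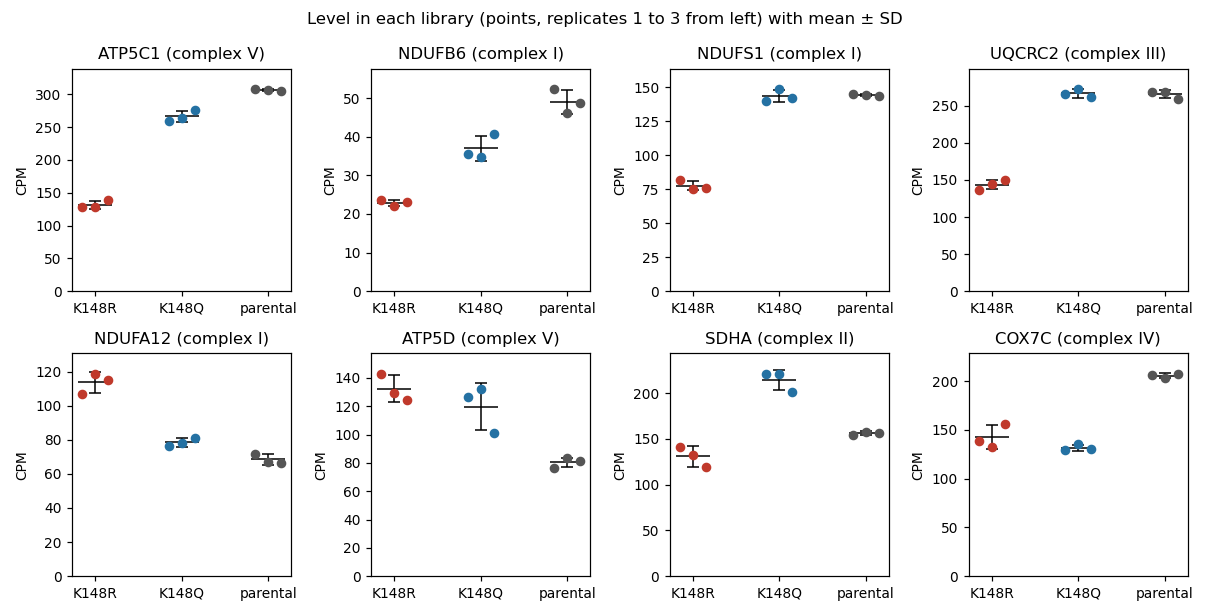
CPM in every library (points, replicates 1 to 3 from left) of 8 members, with the mean and SD of K148R, K148Q and parental libraries on axes that start at 0. ATP5C1, NDUFB6, NDUFS1 and UQCRC2 are lowest in K148R libraries, NDUFA12 and ATP5D are higher there than in parental libraries, SDHA is high in K148Q libraries, and COX7C is lower in both mutants than in parental libraries.

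Genes that build and feed the complexes were counted in the same comparisons. For each list the share of all tested genes was 37.3% lower and 37.8% higher in K148R and 26.3% lower and 27.0% higher in K148Q, both against parental cells. Assembly factors, chaperones that are not part of the finished enzymes, fell in K148R cells for 35 of 51 tested (68.6%) and rose for 8 (15.7%), with a median log2 fold change of -0.56. For complex I they fell for 13 of 16 and rose for 2 (median -0.71). NUBPL, which delivers iron-sulphur clusters to complex I, had 4.62, 5.56 and 4.4 CPM in K148R, 8.99, 10.5 and 11.1 in K148Q and 14.8, 17.2 and 15.97 in parental libraries. Its fall was -1.72 ± 0.13 (edgeR adjusted p = 1.4e-08) in K148R. UQCC2, needed to make the mitochondrially encoded cytochrome b of complex III, had 21.9, 21.7 and 18.02 CPM in K148R, 79.6, 77.4 and 71.7 in K148Q and 57.3, 53.5 and 56.95 in parental libraries. It was low in K148R (-1.44 ± 0.09 (edgeR adjusted p = 8.8e-10)) and high in K148Q (0.45 ± 0.08 (edgeR adjusted p = 0.00027)). COA1, an early complex I and IV factor, and CMC1, which binds COX1 early in assembly, changed by -1.38 ± 0.09 (edgeR adjusted p = 3.8e-09) and -1.50 ± 0.10 (edgeR adjusted p = 2.1e-09) in K148R cells. SDHAF4, a complex II chaperone, changed by -1.61 ± 0.15 (edgeR adjusted p = 1.1e-07), and SCO1, which delivers copper to complex IV, by -1.29 ± 0.08 (edgeR adjusted p = 9.2e-10). TTC19, a complex III factor, rose in K148R cells by 0.74 ± 0.08 (edgeR adjusted p = 1.1e-06), and COX20, a chaperone of COX2, rose in K148R by 0.92 ± 0.13 (edgeR adjusted p = 2e-05) and in K148Q by 1.08 ± 0.13 (edgeR adjusted p = 1.1e-05). In K148Q cells 7 of the 51 assembly factors rose (13.7%) and 11 fell (21.6%), with a median of -0.03.

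Of the 14 tested regulators of mitochondrial biogenesis 9 fell (64.3%) and 2 rose (14.3%) in K148R cells, and 6 fell (42.9%) and 3 rose (21.4%) in K148Q cells, beside the same shares of all tested genes. TFAM, which packages and helps transcribe mitochondrial DNA, had 58.1, 61.2 and 67.5 CPM in K148R, 84.01, 82.8 and 127 in K148Q and 127, 135 and 140.4 in parental libraries, with K148Q replicate 3 close to parental. Its log2 fold changes were -1.11 ± 0.15 (edgeR adjusted p = 3.1e-05) in K148R and -0.45 ± 0.14 (edgeR adjusted p = 0.021) in K148Q. The coactivator PPARGC1B rose in both, by 0.55 ± 0.08 (edgeR adjusted p = 1.4e-05) and 0.37 ± 0.08 (edgeR adjusted p = 0.0011). NRF1 and GABPA, whose motifs were searched above, changed by -0.31 ± 0.08 (edgeR adjusted p = 0.0038) and -0.58 ± 0.15 (edgeR adjusted p = 0.0041) in K148R cells and did not pass in K148Q cells. Exons of GABPA overlap those of the member ATP5J on the opposite strand, and how counting treated strand is unknown. Of 14 TCA cycle genes 10 fell (71.4%) and 2 rose (14.3%) in K148R cells, with a median of -0.44, while 6 rose (42.9%) and 1 fell (7.14%) in K148Q cells. IDH2, mitochondrial isocitrate dehydrogenase, had 116, 117 and 108 CPM in K148R, 446, 449 and 390.4 in K148Q and 384, 379 and 379.6 in parental libraries. SUCLG2, a succinyl-CoA ligase subunit, had 15.7, 20.8 and 15.9 CPM in K148R, 69.6, 66.01 and 84.1 in K148Q and 74.3, 74.9 and 75.7 in parental libraries. K148R libraries were the low ones for both, with -1.74 ± 0.06 (edgeR adjusted p = 2.4e-12) for IDH2 and -2.11 ± 0.11 (edgeR adjusted p = 2.6e-10) for SUCLG2.

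Pyruvate dehydrogenase and pyruvate import genes had 7 of 10 tested lower and 3 higher in K148R cells (70.0% and 30.0%), and 3 lower and 2 higher in K148Q cells (30.0% and 20.0%), the K148Q shares lying near those of all tested genes (26.3% and 27.0%). The higher ones in K148R were PDP1, a phosphatase that activates the enzyme, PDK2, a kinase that inhibits it, and MPC1, a subunit of the pyruvate carrier, with 1.73 ± 0.10 (edgeR adjusted p = 9.8e-10), 1.14 ± 0.11 (edgeR adjusted p = 2.3e-07) and 0.48 ± 0.09 (edgeR adjusted p = 0.00024). Mobile carriers and exchange proteins fell for 14 of 20 (70.0%) and rose for 2 in K148R cells, and 5 rose and 5 fell in K148Q cells (25.0% each, near the shares of all tested genes). COQ3, a methyltransferase of ubiquinone synthesis, changed by -2.02 ± 0.12 (edgeR adjusted p = 7.6e-10) in K148R and -0.64 ± 0.11 (edgeR adjusted p = 0.00015) in K148Q, and SLC25A5, an ADP/ATP carrier, by -0.86 ± 0.05 (edgeR adjusted p = 3.9e-10) in K148R. Proteins of the inner membrane contact site complex, which shapes the cristae, fell for 6 of 7 in K148R cells (85.7%) and for 2 of 7 in K148Q cells (28.6%). CHCHD3, a core protein of that complex, changed by -0.84 ± 0.06 (edgeR adjusted p = 1.3e-08) in K148R.

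Fold changes of the members moved with the GC content of their transcripts against parental cells. Across the 79 tested members the Spearman correlation of the log2 fold change with GC content was 0.29 in K148R and 0.37 in K148Q against parental, and 0.01 in K148R against K148Q. Across the 12559 tested genes with a GC value it was 0.23, 0.20 and 0.15. These are descriptions across genes of the same libraries, and genes are not independent replicates. In K148R against parental cells, 17 of 40 members above the median GC content of tested genes (49.8%) fell and 3 rose, and 26 of 39 at or below it fell and 2 rose. In K148Q against parental cells, 14 of 40 above it rose and 5 fell, and 6 of 39 at or below it rose and 13 fell. Of all tested genes, whatever their GC content, 37.3% fell and 37.8% rose in K148R against parental cells. In K148Q against parental cells 26.3% fell and 27.0% rose. These shares of all tested genes were not split by GC content, so the split counts have no matching background. Members had shorter transcripts than tested genes in all, with a median of 930 bases against 2815. Members were also more highly counted, with a median of 122 CPM against 29.2 CPM. The members lie on 22 chromosomes, 45 of the 87 have named pseudogenes, and exons of 29 tested members overlap another protein-coding gene. Besides those noted above, NDUFB4 has 12 named pseudogenes, and ATP5A1, ATP5F1 and COX6B1 have 7 each.

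**Figure D5:**
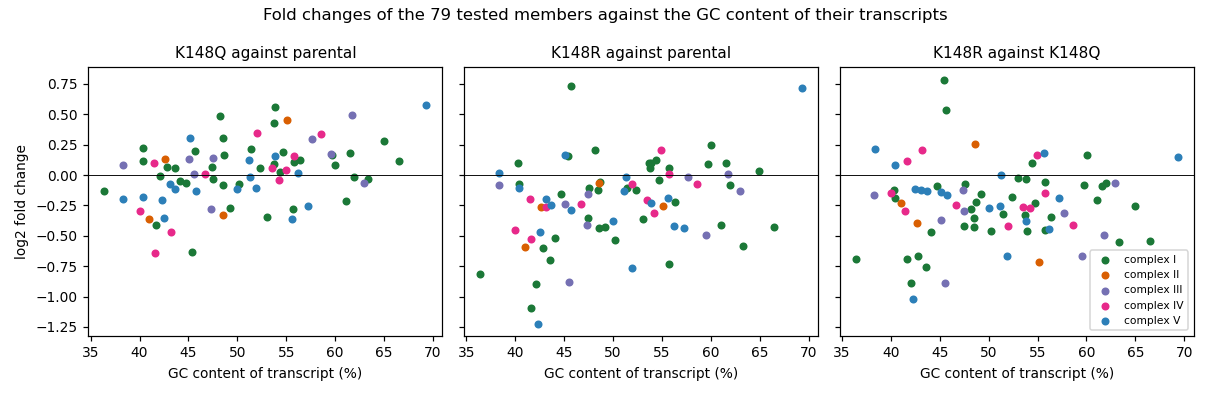
Log2 fold change of the 79 tested members in each comparison against the GC content (%) of the representative transcript, coloured by complex. Against parental cells members of low GC content lie lower on balance in both mutants, and for K148R against K148Q no such trend shows, with a Spearman correlation of 0.01.

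Correction for GC content and length moved values in both directions. Besides the members with a corrected value above, K148R falls grew over 1.5 times for SDHA (-0.40), SDHC (-0.40) and COX5A (-0.56). They shrank by more than that for NDUFA5 (-0.19), NDUFB3 (-0.26), NDUFS4 (-0.33) and UQCRFS1 (-0.13), as did the rise of NDUFB11 (0.15), while the K148Q rise of NDUFA12 grew to 0.31. Some values that had not passed against parental cells passed after the correction. In K148R cells the lower ones included ATP5J2 (-0.61), COX8A (-0.43), NDUFA11 (-0.42), UQCRQ (-0.28), COX5B (-0.15), COX6B1 (-0.16) and CYC1 (-0.08). The higher ones there included NDUFB5 (0.62), ATP5E (0.56), NDUFA4 (0.35), ATP5H (0.26) and NDUFS3 (0.10). In K148Q cells the lower ones included ATP5O (-0.14), ATP5G3 (-0.13) and ATP5B (-0.07). The higher ones there included NDUFB1 (0.30), ATP5J2 (0.29), NDUFS4 (0.20), COX7B (0.19), UQCR10 (0.18) and ATP5G1 (0.17). These lists are not complete.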

How the data were processed

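Total RNA of 9 MV4;11 libraries was sequenced, 3 each of K148R, K148Q and parental cells, grouped by the genotype in the labels. The values the authors deposited are raw read counts per gene symbol. Per the submitters' processing notes, featureCounts 1.5.2, HISAT2 2.0.5 and FastQC 0.11.7 were used with GRCh38. Options, strand handling and annotation were not given in the sources used here.

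Counts were filtered with filterByExpr by group in edgeR 4.0.16 (R 4.3.3), which left 12845 genes, scaled with TMM and fitted over all 9 libraries with a term per genotype. The robust quasi-likelihood F test was used, with Benjamini-Hochberg adjustment over all tested genes and a threshold of 0.05. CPM values use TMM-scaled totals. The code was tested on simulated data. Limits for 0 counts are 3 counts in a library and, like other depth limits, cover counting error only. Positions, and the GC content and length of a representative transcript, came from GENCODE v29, older symbols were matched through RefSeq synonyms (18 members) or the name in GENCODE v29 (ATP5S), and promoters from RefSeq GRCh38.p14.

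Alternatives were DESeq2 1.42.0, limma-voom (limma 3.58.1), other scalings and filters, fits of only the 2 groups compared, a replicate term, leaving out each library, and offsets for GC content and length from smooth fits (mgcv 1.9.3).

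The members and gene lists were chosen with earlier results of these data known. The naming rule took, per comparison and complex, the 2 members with the smallest adjusted p in each direction and the most highly counted one that did not pass, and always the isoform families, succinate dehydrogenase, catalytic and core subunits and matched symbols that are no subunits. From each other list it took up to 2 genes per direction and comparison. Members and list genes named beyond it were chosen after their values were seen. FMC1 and TWNK, on the assembly and biogenesis lists, were not found in the count table by symbol or synonym. Some named results, members included, are not reported here, though counts and sums over lists include them.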

Additional observations from a re-analysis of the deposited data

How the results depend on the processing

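Counts of calls are for 79 tested members. In K148R against parental cells, 43 members fell, with 38 to 49 when 1 library was left out and 41 to 49 under 10 other settings. The 5 rises became 9 with only the 2 groups compared and 11 after correction for GC content and length, and 4 to 10 without 1 library, 10 being without K148Q replicate 3. Of all tested genes 39.8% rose with only the 2 groups compared and 40.5% after that correction. In K148Q against parental cells, the 20 rises became 12 with upper quartile scaling, 28 after the GC and length correction and 13 to 34 without 1 library. The 18 falls ranged from 14 to 19 without 1 library and from 15 to 21 under the 10 other settings. In K148R against K148Q cells, the 7 rises became 4 with library totals only, 4 with only the 2 groups compared and 11 after the GC and length correction, with 5 to 8 without 1 library, and the 53 falls ranged from 44 to 60. Of all tested genes 33.4% rose with library totals only, 33.4% with only the 2 groups compared and 40.3% after the correction. The cause of these shifts was not tested. Calls kept under every setting run were 32 of 43 falls and 3 of 5 rises in K148R against parental, 13 of 18 and 11 of 20 in K148Q against parental, and 37 of 53 and 4 of 7 in K148R against K148Q. Kept calls were not counted over all tested genes.

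Of 50 named members, a change of sign with a call before or after it arose only under the GC and length correction, in 9 values. They were COX6B1 (-0.16), COX7A2L (0.12), COX7B (0.15), CYC1 (-0.083) and COX6C (0.0096) in K148R against parental, and SDHD (0.10), ATP5L (0.14), ATP5I (-0.46) and COX6C (0.13) in K148R against K148Q. The 50 are those of the naming rule, and under that correction other members changed sign as well. In K148R against parental these included ATP5F1 (0.035), NDUFB4 (0.012), UQCR10 (0.007) and NDUFA4 (0.35). In K148R against K148Q they included NDUFA4 (0.10) and NDUFB5 (0.25).

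With the replicate number as a term (replicate block), members rose and fell in 24 and 18 for K148Q against parental, 6 and 44 for K148R against parental, and 7 and 54 for K148R against K148Q. The numbers name no shared batch in the labels. Deviations of same-numbered libraries correlated at 0.14, 0.01 and 0.27 between the mutants and at most 0.04 with parental libraries, so not every library correlated best with its own number.

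Members of low counts were not tested (8 of 87), and 3 libraries per group, counts that cannot separate near-identical copies or overlapping genes without strand, and the GC deviations of K148Q and K148R libraries limit the smaller changes.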
